A study of Mus musculus with 4 samples.

Results

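The comparison was wild type (WT) brain against WT limb of the mouse embryo at day E13.5, and it took in 2 of the 4 arrays of the series, 1 per tissue. Its members were the gene names with a probe well above background on at least 1 of those 2 arrays, which were 18434 of the 27629 names on the array. The series measured limb and brain of WT embryos and of embryos with conditional ablation of Rest (CKO), 1 array per group. Rest-floxed mice carrying doxycycline-inducible Cre alleles were given doxycycline from E8.5 to E13.5, and the labels record that treatment for all 4 samples, WT included. The genetic background was 129 and C57BL/6 in all groups. Not given in the sources used here are the promoter that drove Cre, the floxed-locus genotype of the WT embryos, and the number of embryos behind an RNA sample.

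At this stage the limb bud holds condensing cartilage, differentiating skeletal muscle, tendon and dermal mesenchyme under a simple epidermis, while the brain holds dividing progenitors beside newly made neurons. Transcription factors set these identities early and act in combination: homeodomain, T-box and basic helix-loop-helix proteins switch on the matrix, contractile and synaptic genes that carry out each tissue's work. REST, the factor targeted in the series, is a zinc-finger protein that recruits corepressors to neuronal genes in non-neuronal cells.

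Values are log2 intensities, with 0 set at each array's 75th percentile, and a difference is brain minus limb, so that limb-higher genes have negative differences. With 1 array per group the WT comparison has no replicates and no test. Differences were called by size, at least 2-fold, and where a gene was not well above background in a tissue the fold is a lower bound, written "at least". The 4 arrays allow a single test, limma's tissue term over both genotypes. It takes in genes measured on all 4 arrays and averages over WT and CKO. Its SE and p-value rest on the gap between the WT and CKO tissue differences, pooled with that of other genes. They do not measure spread among embryos, and a gene whose tissue difference changed with genotype gets a larger SE. The share of spots well above background was 62.7% in WT limb and 64.5% in WT brain, and 245 probes printed 10 times on each array gave a median technical SD of 0.08 for a single-spot difference, an error of the array and not of embryos. Rest itself was at 1.64 in WT limb and at -0.78 in WT brain, 5.35-fold higher in limb, and at -0.37 and -1.69 in CKO limb and brain.

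Neuronal, contractile, matrix and epidermal genes set the tissues apart, and most other genes did not differ by 2-fold. Of the 18434 genes, 2916 (15.8%) were at least 2-fold higher in WT brain and 3475 (18.9%) were at least 2-fold higher in WT limb. Of the 15659 genes measured in both tissues, 8096 differed by less than 1.5-fold. At 100-fold or more there were 68 genes higher in brain and 52 higher in limb. The median difference over all genes was -0.00. In bulk tissue, fewer cells of a type and less RNA per cell cannot be told apart. Of genes listed below, members that were dark in 1 tissue entered only through the other, so each list's counts and median describe it and test nothing. The counts of every list stand beside the 15.8% and 18.9% of all compared genes.

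**Figure D1:**
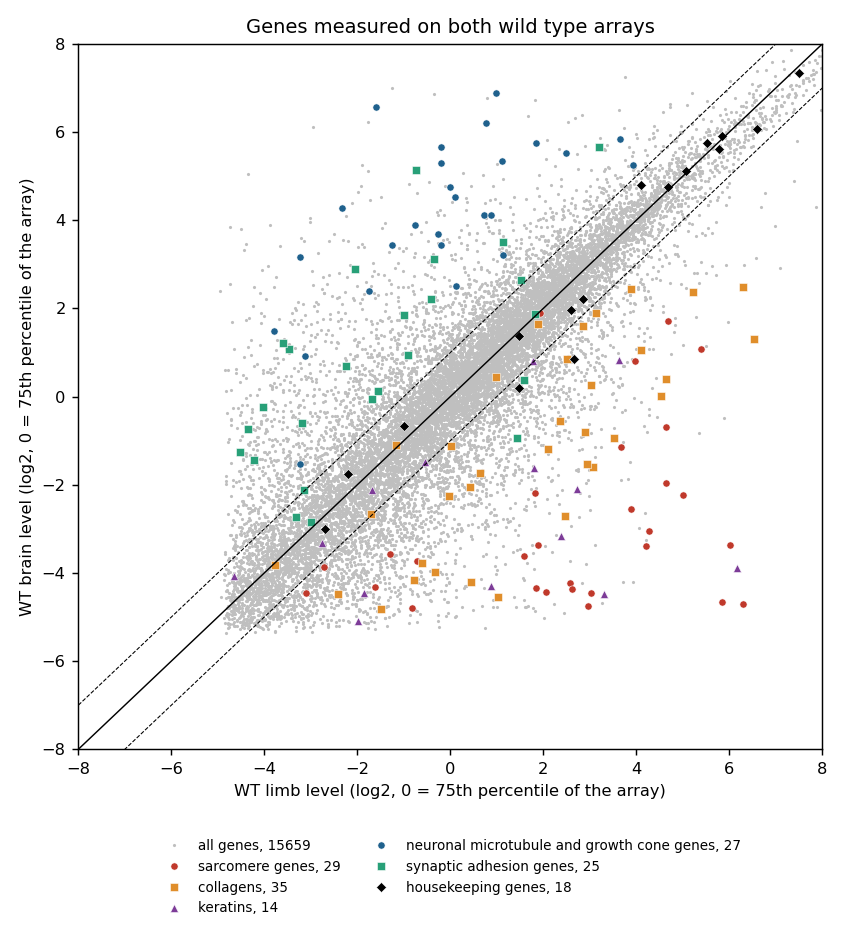
Level of each gene measured on both WT arrays, limb on the x axis and brain on the y axis, in log2 units with 0 at the array's 75th percentile; the solid line marks equal levels and the dashed lines a 2-fold difference. Sarcomere genes, collagens and keratins lie mostly below the lines, microtubule and growth cone genes lie above them, and 16 of the 18 housekeeping genes lie between them.

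Stmn3, Myl1 and Krt5 were drawn from the largest differences and bounds, so their direction was set by that choice and tests nothing. Stmn3, a neuronal microtubule regulator on chromosome 2, was not well above background in limb and reached 6.16 in brain, at least 2203-fold higher, and 3.71-fold in the CKO pair. Myl1, a fast skeletal myosin light chain on chromosome 1, was at 6.29 in limb and -4.70 in brain, 2030.2-fold higher in limb. Krt5, a keratin of basal epidermis, was at 6.16 in limb and -3.89 in brain, 1059.85-fold higher in limb. Housekeeping genes sat close to equal: Gapdh, a glycolytic enzyme, was at 5.85 and 5.90 and Actb, cytoplasmic actin, at 5.08 and 5.12 in limb and brain. Of 18 housekeeping genes 2 exceeded 2-fold, among them the class I light chain B2m, 3.49-fold higher in limb.

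Transcription factors of the forebrain were mostly higher in brain. Of 37 forebrain factors compared, 31 were at least 2-fold higher in brain and 2 in limb, with a median difference of 3.11, and 14 of the 18 measured in both tissues were among the 31. Neurod2, a basic helix-loop-helix factor of differentiating cortical neurons, was at -3.21 in limb and 3.60 in brain, 112-fold higher in brain. Factors of successive steps of cortical neuron production were each dark in limb, namely Pax6 of ventricular progenitors (at least 88.5-fold), Eomes of intermediate progenitors (at least 80.1-fold) and Tbr1 of early neurons (at least 93.8-fold). Lhx5, a LIM homeodomain factor, was at least 192-fold and Nr2e1, an orphan nuclear receptor of neural stem cells, at least 144-fold higher in brain. Otx2, which patterns forebrain and midbrain, was at least 42.2-fold higher.

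Several forebrain factors that also act in the limb bud were measured in both tissues. Dlx1 and Dlx2, distal-less homeodomain factors of forebrain interneuron progenitors, were 19.6-fold and 8.62-fold higher in brain. Dlx5, which also serves the limb's apical ridge and skeleton, was at -0.51 in limb and 0.24 in brain, 1.69-fold higher, and Dlx6 was 2.51-fold higher. Lhx2, used in both cortex and limb bud, was at 1.87 and 4.74, 7.31-fold higher in brain. Emx2, another cortical regulator, was at -0.11 and -0.04, the smallest gap of the list. Six3, an anterior forebrain and eye factor, ran against its list, at -0.47 in limb and -3.31 in brain, and the CKO pair gave the opposite order, with limb at -7.87 and not above background and brain at -3.18.

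Midbrain and hindbrain factors were divided, with 17 of 30 higher in brain, 5 higher in limb and a median of 1.31. Of the 15 measured in both tissues, 6 were higher in brain and 5 in limb, with a median of 0.51. The list's lean to brain thus came mostly from genes dark in limb. En2, an engrailed factor of the midbrain-hindbrain boundary, was at -4.40 in limb and 1.74 in brain, 70.6-fold higher, and limma's tissue term gave 6.23 ± 0.09 (SE) with an adjusted p of 0.0017. Gbx2, its hindbrain-side partner, was at least 46.5-fold higher. Progenitor and proneural factors had 21 of 28 members higher in brain, none higher in limb at 2-fold, and a median of 4.32. Of the 13 measured in both tissues, 8 were higher in brain, with a median of 1.72. Hes5, a Notch effector that keeps progenitors undifferentiated, was at -1.78 and 5.11 in limb and brain, 119-fold higher. Neurog2, a proneural factor, was at least 126-fold and Sox2, the neural stem cell factor, at least 115-fold higher, while Sox1 was at least 3.35-fold higher. Myt1l and Myt1, zinc-finger factors of new neurons, were at least 243-fold and at least 165-fold higher. All 5 Zic genes, zinc-finger factors of the dorsal neural tube, were at least 2-fold higher in brain, among them Zic1 at -0.17 in limb and 5.68 in brain.

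Limb patterning factors were higher in limb in 20 of 35 cases and higher in brain in 8, with a median of -1.24. Tbx5, the T-box factor that starts the forelimb bud, was at 3.30 in limb and -6.73 in brain, at least 404-fold higher in limb. Tbx4, its hindlimb counterpart, was at -3.03 in limb and dark in brain, at least 5.02-fold higher. Prrx1 and Prrx2, paired-type homeodomain factors of limb mesenchyme, were 33.0-fold and 26.8-fold higher in limb, and Hand2, which sets the posterior limb margin, was at least 32.0-fold higher. Of the 8 higher in brain, Meis2, a homeodomain partner of Hox and Pax proteins, was 6.87-fold and Lhx9 3.59-fold higher, and Sall3, a spalt zinc-finger factor at -4.88 and dark in limb, at least 46.6-fold higher in brain.

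Mesenchymal and skeletal factors leaned the same way, 22 of 34 higher in limb and 4 in brain, with a median of -2.16. Twist2, a basic helix-loop-helix repressor of dermal mesenchyme, was at 3.93 in limb and -4.21 in brain, 283-fold higher, and limma gave -7.35 ± 0.47 with an adjusted p of 0.0032. Meox2, a mesodermal homeodomain factor, was 246-fold and Twist1 89.2-fold higher in limb. Sox9, the cartilage regulator that also serves neural stem cells, was at 1.62 and 2.0, 1.3-fold higher in brain, and its cartilage partner Sox5 was 6.48-fold higher in brain. Nkx3-2, a skeletal homeodomain factor, was at -3.37 in limb and 0.12 in brain, 11.2-fold higher in brain, whereas in the CKO pair limb was at -3.82 and brain at -8.29, not above background. Among 11 myogenic factors 6 were higher in limb, and of the 5 measured in both tissues 1 was, with a median of -0.64. Myog, which drives myoblasts into fusion, was at 3.12 in limb, at least 358-fold above brain, and Myod1, the muscle determination factor, was at least 42.7-fold higher. Pax3, a paired-box factor of muscle precursors and of the dorsal neural tube, was higher in brain by at least 6.38-fold, and Pax7, its paralog, was at -1.88 and -1.29.

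Hox genes, homeodomain factors ordered along the body axis, were divided by their position in the clusters. All 14 compared genes of paralog groups 9 to 13 were at least 2-fold higher in limb, with a median of -4.20, and 1 of them was well above background in brain. Of the 22 compared genes of groups 1 to 8, 7 were higher in brain and 5 in limb, with a median of 0.39. Hoxd13, of the digit-forming distal limb, was at 3.65 in limb and -7.01 in brain, at least 517-fold higher, and Hoxa11, of the forearm and lower leg, was at 2.56 in limb, at least 242-fold higher. Hoxb5 went the other way, at -3.21 in limb and 1.74 in brain, 30.9-fold higher in brain, followed by Hoxb6 at 14.8-fold, with a second probe 1.17-fold higher, and Hoxb8 at 12-fold. Hoxc4 was equal, at -2.54 and -2.50. By cluster, 4 of 8 Hoxb genes were higher in brain and 1 in limb, while the 8 Hoxc and 9 Hoxd genes had 0 higher in brain and 6 higher in limb in each. The sources used here do not say how far the brain dissection reached towards the spinal cord.

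**Figure D2:**
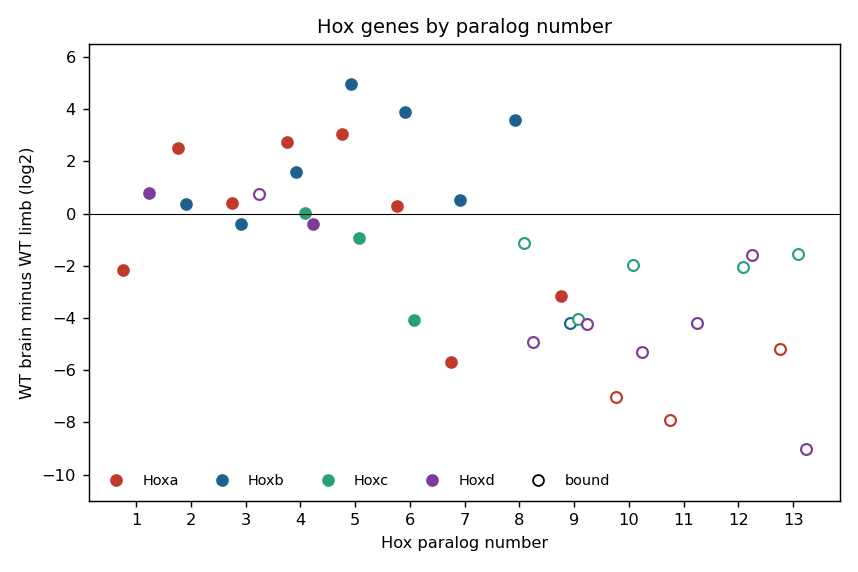
WT brain minus WT limb difference (log2, y axis) of each Hox gene compared, against its paralog number (x axis), coloured by cluster; open circles are bounds because 1 tissue was not well above background. Every gene of groups 9 to 13 lies below 0, and the points above 2 belong to the Hoxa and Hoxb clusters between groups 2 and 8.

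The extracellular matrix of the limb exceeded that of the brain across nearly every collagen, fibrous protein and laminin. Of 40 collagen genes compared, 35 were at least 2-fold higher in limb and 0 in brain, with a median of -3.10, and 30 of the 35 measured in both tissues were among them. Col1a1, the main chain of bone and dermal collagen, was at 6.52 in limb and 1.30 in brain, 37.3-fold higher, with -4.84 ± 0.22 and an adjusted p of 0.0023 by limma. Col12a1, a fibril-associated collagen, was 47.8-fold and Col17a1, of the epidermal hemidesmosome, at least 81.8-fold higher in limb. Col4a6, a basement membrane chain, was equal at -1.18 and -1.10. Of 35 genes for fibrous and elastic matrix 34 were higher in limb, with a median of -3.76. Kera, a small leucine-rich proteoglycan, was at 3.96 in limb and -6.71 in brain, at least 640.3-fold higher, and Tnmd, a tendon membrane protein, was at least 103-fold higher. The list's smallest gap was Tnc, the glycoprotein tenascin C, at -0.28 and -1.27.

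Cartilage matrix genes had a median of -3.39, with 11 of 15 higher in limb and 1 in brain, but in the CKO pair the median was -0.41 and 3 were higher in limb. Acan, the large cartilage proteoglycan, was at -0.73 in WT limb and -4.86 in WT brain, 17.5-fold higher in limb, against -0.97 and -0.81 in the CKO arrays. Hapln1, the link protein that holds it to hyaluronan, was at least 18.3-fold higher in WT limb, and in the CKO pair it was at -1.76 in limb and -1.38 in brain. Col9a1, a minor cartilage collagen, was 25.2-fold higher in WT limb and 1.21-fold in the CKO pair, and limma gave an adjusted p of 0.18. Col9a1 was at 0.45 in WT limb and 1.14 in CKO limb, and at -4.20 in WT brain and 0.87 in CKO brain, so for both genes the brain arrays were further apart than the limb arrays. Genes of the inner ear and of cartilage moved with them: Oc90, a protein of otoconia, was at -4.26 in WT brain and 2.46 in CKO brain, Otor, secreted in cochlea and cartilage, at -3.17 and -0.35, and Epyc, a small cartilage proteoglycan, at -5.56 and -0.76. In limb the same genes were at -2.89, -1.10 and -1.66 in WT and at -4.21, -1.54 and -3.09 in CKO. These 3 were named after their values were seen, and their part in the cartilage values was not tested. With 1 array per group, genotype and the content of an individual dissection cannot be told apart. Crtac1, a secreted cartilage acidic protein, was the member higher in WT brain, at -0.52 and 1.93, and it was at 2.95 and 2.45 in the CKO pair.

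Bone and basement membrane genes were also higher in limb. Mgp, an inhibitor of mineral deposition, was 51.6-fold higher in limb, and Ibsp, a sialoprotein of bone, at least 38.6-fold. Of 10 laminins 9 were higher in limb, led by Lama3 of the epidermal basement membrane at 13-fold. Lama1, of the early neural basement membrane, was at -2.31 and -1.41, 1.88-fold higher in brain, and limma's tissue term gave 1.25 ± 0.22 with an adjusted p of 0.019. Integrins had 15 of 24 members higher in limb and 2 in brain, with a median of -1.51, and the Adamts and Mmp proteases 15 of 25 and 2, with a median of -1.69. Itgb4, the hemidesmosome integrin, was 14.2-fold higher in limb. Itgb8 was 9.16-fold higher in brain, while another of its probes was 2.45-fold higher in limb. Mmp2, a gelatinase, was 15.8-fold higher in limb, and Mmp24, a membrane-type protease, was at least 36.3-fold higher in brain in WT and 3.15-fold in CKO. Glypicans and syndecans, heparan sulphate carriers, had 6 of 10 members higher in limb and 2 in brain. Gpc3 was 14.3-fold higher in limb and Gpc2 6.94-fold higher in brain.

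Brain matrix genes were the exception, with 9 of 13 higher in brain and 2 in limb. Ncan, the neural chondroitin sulphate proteoglycan neurocan, was at -2.95 in limb and 6.11 in brain, 536-fold higher. Its CKO pair was 13.4-fold apart, since CKO limb stood at 2.27, and limma's tissue term was 6.40 ± 1.54 with an adjusted p of 0.039. Bcan, its relative brevican, was at least 47.8-fold and Reln, the secreted guide of cortical layering, 18-fold higher in brain. The 2 members higher in limb were Vcan, a proteoglycan of loose mesenchyme, at 3.77-fold and Cspg4, of pericytes and glial precursors, at 5.76-fold. The 2 other measured probes gave differences of -1.51 and -0.71 for Vcan and of -2.52 and -0.46 for Cspg4. The brightest probe of Ptprz1, a receptor phosphatase that is itself a chondroitin sulphate proteoglycan, was saturated on both arrays and gave no fold. Its 2 other measured probes gave differences of 2.72 and 4.57, higher in brain.

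Contractile genes were the furthest towards limb of the lists examined. Of 43 sarcomere genes compared, 42 were at least 2-fold higher in limb, 0 in brain, and the median of -5.61 was the lowest of the 80 lists. Myh3, the embryonic myosin heavy chain, was at 5.85 in limb and -4.65 in brain, 1453-fold higher, and limma gave -9.87 ± 0.37 with an adjusted p of 0.0020. Tnnc2, the calcium sensor of fast muscle, was at 6.01 and -3.37, 668-fold higher. Myl3, the light chain shared by slow muscle and ventricle, was at least 586-fold higher, with a second probe 2.10-fold higher, and Tnnt2, the troponin T of heart and embryonic muscle, was at least 378-fold higher. The adult fast myosin Myh4 was at 1.58 and -3.61, 36.5-fold higher, and the giant spring protein titin, Ttn, was at least 170-fold higher. Tnni3, cardiac troponin I, was 2.19-fold higher in limb. Smyd1, a muscle methyltransferase, was the member without a difference, at 1.92 and 1.89, and at 1.95 and 1.88 in the CKO pair.

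Of the sarcomeric actins, Acta1 of skeletal muscle was at 4.21 in limb and -3.39 in brain, 195-fold higher, and Actc1, the cardiac actin that embryonic muscle also uses, was at 5.39 and 1.08, 19.8-fold higher. Of 10 smooth muscle genes 8 were higher in limb and 0 in brain, with a median of -1.403. Acta2, vascular actin, was at 4.76 and 4.35 and Tagln, transgelin, at 3.42 and 3.06, although another probe of each gave differences of -5.45 and -2.56, and Cnn1, calponin, was 7.14-fold higher in limb.

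Promoter windows of the sarcomere genes held certain short motifs more often than all windows did, and 3 are printed to show where these stretches fall. Each is 300 bases, from 250 before to 50 after a start site, read 5′ to 3′ on the gene's strand from RefSeq's annotation of GRCm38.p6. Capitals mark the TATA letters TATAAA, an E-box of the kind that MyoD family proteins bind (CAGCTG), the CArG box of serum response factor and the MEF2 box, searched on both strands, and a TATAAA can lie inside a MEF2 box. Acta1 lies at chr8:123894726-123895025 on the minus strand, Actc1 at chr2:114052826-114053125 on the minus strand, and Myh4 at chr11:67237562-67237861 on the plus strand.
Acta1: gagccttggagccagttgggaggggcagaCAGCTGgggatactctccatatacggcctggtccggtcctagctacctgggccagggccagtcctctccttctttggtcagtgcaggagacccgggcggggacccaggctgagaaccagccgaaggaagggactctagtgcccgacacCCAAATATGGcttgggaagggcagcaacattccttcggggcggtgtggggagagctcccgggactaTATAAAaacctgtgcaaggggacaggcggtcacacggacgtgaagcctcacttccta
Actc1: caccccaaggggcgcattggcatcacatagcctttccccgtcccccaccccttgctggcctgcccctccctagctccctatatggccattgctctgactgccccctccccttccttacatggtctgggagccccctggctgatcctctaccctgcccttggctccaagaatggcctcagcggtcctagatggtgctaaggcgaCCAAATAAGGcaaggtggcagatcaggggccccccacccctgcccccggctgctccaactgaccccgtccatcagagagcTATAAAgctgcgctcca
Myh4: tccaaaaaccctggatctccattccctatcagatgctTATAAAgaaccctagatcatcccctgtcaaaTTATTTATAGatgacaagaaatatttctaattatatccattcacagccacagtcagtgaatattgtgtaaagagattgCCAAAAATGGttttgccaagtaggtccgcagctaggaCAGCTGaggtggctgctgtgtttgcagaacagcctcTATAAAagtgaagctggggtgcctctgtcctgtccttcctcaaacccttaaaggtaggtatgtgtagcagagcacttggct

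The first base of the CArG box lay at -73 in Acta1, -47 in Actc1 and -104 in Myh4, counted from the start. A CArG box was in 8 of the 43 sarcomere windows (18.6%) and in 1.63% of all 32851 windows. The MEF2 box was in 7 of them (16.3%) against 3.19% of all. CAGCTG was in 16 (37.2%) against 16.3% of all, in 11 of 18 windows (61.1%) of the excitation and neuromuscular junction genes, in 8 of 18 (44.4%) of the vesicle fusion genes and in 14 of 38 (36.8%) of the neuronal RNA-binding genes. TATAAA was in 12 of 43 sarcomere windows (27.9%) and in 16 of 31 keratin windows (51.6%) against 13.6% of all. In sarcomere and keratin windows GC-rich letters ran the other way, GGCGGG being in 20.9% and 6.45% of them and in 35.3% of all. Windows of the genes compared had other shares than all windows, 8.55% for TATAAA, 1.86% for the MEF2 box and 57.5% for GGCGGG. Their shares were 1.35% for the CArG box and 15.95% for CAGCTG. These are matches of letters, several windows can belong to 1 gene, and 35 of the 45 sarcomere genes had a window.

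Genes of the muscle membrane and its synapse were higher in limb in 19 of 21 cases, with a median of -3.57. Chrng, the fetal subunit of the muscle acetylcholine receptor, was at 2.55 in limb and -7.50 in brain, at least 240.3-fold higher, whereas Chrne, the subunit that replaces it after birth, was at -1.15 and -0.86. Chrna1, the receptor's ligand-binding subunit, was at least 135-fold and Cacna1s, the voltage sensor of the transverse tubule, 34.8-fold higher in limb. Sln, the calcium pump inhibitor sarcolipin, was 131-fold higher. Of 19 genes for fusion and metabolism 15 were higher in limb, Cav3, muscle caveolin, by at least 213-fold and Smpx, a small stretch-linked protein, by at least 160-fold. Fabp3, a fatty acid carrier used in heart and brain, was the member higher in brain, at 2.34 and 3.76.

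Most genes of the presynaptic machinery were higher in brain. Of 22 vesicle fusion genes 19 were higher in brain and 1 in limb, with a median of 2.27, and of 31 synaptic vesicle and active zone genes 22 and 1, with a median of 2.45. Snap25, a membrane partner in vesicle fusion, was at -5.53 in limb, not above background, and 2.56 in brain, at least 182-fold higher, and 3.17-fold in the CKO pair. Slc32a1, which loads GABA and glycine into vesicles, was at -5.09 and 4.73, at least 820.3-fold higher and the largest value in the synapse lists. Slc17a6, which loads glutamate, was at least 171-fold higher, and Syt1, the calcium sensor of release, was at -2.31 and 3.55, 58.0-fold higher, with an adjusted p of 0.0017 by limma. Syn1, synapsin I, was at 4.54 in limb and 4.47 in brain, equal in WT and at 4.39 and 4.23 in the CKO pair. These values are of its brightest probe, and its other probe was not well above background in at least 1 WT tissue. Its paralog Syn2 was 45.3-fold higher in brain. Cplx3, a complexin known from retina, was the fusion gene higher in limb, by at least 4.31-fold. Its other probe, measured in both tissues, gave a difference of -0.15.

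Postsynaptic scaffold genes had 14 of 24 members higher in brain, 1 in limb and a median of 1.16. Camk2b, a calcium-dependent kinase of spines, was 15.5-fold higher in brain, and Iqsec3, a scaffold of inhibitory synapses, was at -4.33 and 1.78, 69.4-fold higher, but 2.15-fold in the CKO pair, where limb stood at 1.26. Synaptic adhesion genes had 32 of 38 members higher in brain and 2 in limb, with a median of 2.52. Cntn2, an axonal contactin, was at least 188-fold and Chl1, an L1-type adhesion molecule, 58.4-fold higher.

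Transmitter synthesis genes had 10 of 18 members higher in brain, with a median of 1.37. Of the 10 measured in both tissues, 2 were higher in brain and 1 in limb, and their median was -0.29, so the list's direction came from genes dark in limb. Gad1 and Gad2, which make GABA, were at least 94.1-fold and at least 136-fold higher in brain, and Th, of catecholamine neurons, was at least 14.1-fold higher. Granin and neuropeptide genes had 20 of 27 members higher in brain and a median of 3.03, against 1.13 in the CKO pair. Chgb, a granin of dense-core vesicles, was at -4.73 in limb and 3.84 in brain, 381-fold higher, and 3.29-fold in the CKO pair, and limma gave an adjusted p of 0.10. Chga and Scg3, others of the family, were 137-fold and 135-fold higher in WT brain and 1.27-fold and 1.41-fold in the CKO pair. For Chga the limb arrays were further apart than the brain arrays, at -3.67 in WT limb and 3.62 in CKO limb against 3.43 in WT brain and 3.96 in CKO brain. Scg2 was at least 30.5-fold higher in WT brain and 1.93-fold higher in CKO limb. Pdyn, the dynorphin precursor, was 43.8-fold higher in brain in WT and 43.3-fold in CKO, and Penk, the enkephalin precursor, was 2.71-fold higher in WT limb.

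The core of REST's binding element, RE1, was searched for by its consensus letters, with 2 free positions between its left and right arms, on both strands of the same 300-base windows. It was in 12 of 32851 windows (0.0365%) and in 8 of 15457 windows (0.0518%) of the genes compared. By size of the WT difference, it was in 4 of 727 windows (0.550%) of genes at least 8-fold higher in brain. It was in 0 of 560 of genes at least 8-fold higher in limb and in 3 of 7248 (0.0414%) of genes under 1.5-fold. These sets were cut by the same differences, and a link to REST was not tested. The 4 windows of brain-higher genes belonged to Fbll1, Ttc9b, Hrh3 and Osbp2, which were chosen after their values were seen. The windows of 3 are printed with the match in capitals. Fbll1 lies at chr11:35798835-35799134 on the minus strand, Ttc9b at chr7:27653674-27653973 on the plus strand, and Hrh3 at chr2:180104358-180104657 on the minus strand, in RefSeq's GRCm38.p6.
Fbll1: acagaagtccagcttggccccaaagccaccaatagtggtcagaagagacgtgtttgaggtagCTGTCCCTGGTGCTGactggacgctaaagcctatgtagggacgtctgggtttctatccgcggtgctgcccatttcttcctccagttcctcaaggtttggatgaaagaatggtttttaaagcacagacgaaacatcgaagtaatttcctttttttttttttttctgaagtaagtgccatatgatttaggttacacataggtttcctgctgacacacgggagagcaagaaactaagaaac
Ttc9b: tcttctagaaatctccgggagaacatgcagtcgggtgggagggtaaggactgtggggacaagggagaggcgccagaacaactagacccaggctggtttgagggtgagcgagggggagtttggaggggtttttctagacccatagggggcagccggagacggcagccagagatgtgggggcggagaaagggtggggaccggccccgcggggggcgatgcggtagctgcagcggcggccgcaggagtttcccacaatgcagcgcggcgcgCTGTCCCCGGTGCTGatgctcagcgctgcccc
Hrh3: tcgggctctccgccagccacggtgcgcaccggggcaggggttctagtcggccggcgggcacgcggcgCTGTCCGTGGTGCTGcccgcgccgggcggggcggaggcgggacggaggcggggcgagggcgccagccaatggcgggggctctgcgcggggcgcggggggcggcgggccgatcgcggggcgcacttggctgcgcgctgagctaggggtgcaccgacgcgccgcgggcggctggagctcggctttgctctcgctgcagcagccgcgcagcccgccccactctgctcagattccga

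Fbll1, a fibrillarin-like methyltransferase, was at -3.88 in WT limb and 3.88 in WT brain, 217-fold higher, against 1.08 and 4.02 in the CKO pair. Ttc9b, a tetratricopeptide repeat protein, was dark in WT limb at -7.12 and at 2.15 in brain, at least 137-fold higher, and at -2.85 and 2.42 in the CKO pair. Hrh3, the histamine receptor of presynaptic terminals, was at least 31.0-fold and Osbp2, an oxysterol-binding protein, at least 12.2-fold higher in WT brain, and 9.06-fold and 4.17-fold in the CKO pair. Of the other genes with a match, Sptbn4 had brain minus limb differences of 0.34 in WT and 0.45 in CKO, Lca5 of 0.25 and 0.29 and Ogdhl of 0.61 and -0.41. A match of letters is not a shown binding site, and 12165 of the 15459 compared genes with a current symbol had a window.

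Channel genes were divided between the tissues, within families as well as between them. Potassium channels had 28 of 59 members higher in brain and 12 in limb, with a median of 0.68, and 17 of the 76 listed were above background in neither. Of the 35 measured in both tissues, 14 were higher in brain and 9 in limb, with a median of 0.375. Kcne2, an accessory subunit abundant in choroid plexus, was at 2.01 in brain and at least 125-fold higher, Kcnk9, a leak channel, at least 62.6-fold and Kcnj10, the inward rectifier of glia, at least 19.7-fold higher in brain. In limb the leaders were Kcne4, an accessory subunit, at least 20.4-fold, and Kcnk6, a leak channel, 12.3-fold higher. Sodium channels had 7 of 12 members higher in brain and 0 in limb. Scn2a, of axon initial segments, was at -4.11 and 0.17, 19.5-fold higher, and Scn8a, of nodes, was 7.83-fold higher in WT and 1.73-fold in CKO, with an adjusted p of 0.080 by limma. Calcium channels had 8 of 22 members higher in brain and 5 in limb, Cacnb4, a neuronal beta subunit, by 14.8-fold and the muscle gamma subunit Cacng1 by at least 11.6-fold in limb.

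Receptor channels for glutamate, GABA and glycine were mostly higher in brain. The glutamate receptors had 10 of 15 higher in brain and 1 in limb, and Gria2, the subunit that limits calcium entry, was at -1.28 and 2.54, 14.2-fold higher, with 2.63 ± 0.70 and an adjusted p of 0.048 by limma. The GABA and glycine receptors had 11 of 15 higher in brain and a median of 3.18. Gabrp, a subunit of epithelia, ran against its list, at 1.41 in limb and at least 109-fold higher there. Chrnb2, the main neuronal nicotinic subunit, was at least 51.9-fold higher in brain in WT and 1.83-fold in CKO. Piezo2 and Piezo1, which sense membrane stretch, were 9.41-fold and 4.95-fold higher in limb, and Trpm5, a calcium-gated cation channel, was 18.2-fold higher in limb. Hcn3, a pacemaker channel, and Asic1, a proton-gated channel, were 20.2-fold and 21.8-fold higher in brain in WT and 2.85-fold and 5.05-fold in CKO, and limma gave adjusted p-values of 0.054 and 0.021.

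Connexins were higher in limb more often than in brain. Of 15 connexins and pannexins 8 were higher in limb and 2 in brain, with a median of -2.08. Of the 9 measured in both tissues, 4 were higher in limb and 1 in brain, with a median of -0.28. Gja5, of vessels, was 17.6-fold and Gjb2, of epidermis, 14.4-fold higher in limb. Gjd2, the connexin of electrical synapses, was at least 6.95-fold higher in brain in WT and 1.398-fold in CKO. Aqp3, the glycerol and water channel of skin, was at 2.22 in limb and -4.70 in brain, 121-fold higher.

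Wnt ligands and receptors had 20 of 31 members higher in limb and 2 in brain, with a median of -1.45. Wnt2 was at 0.57 in limb and at least 61.0-fold higher, Wnt11 31.7-fold and Wnt5a, which drives limb outgrowth, 9.42-fold higher in limb. The 2 higher in brain were Wnt7a, at 2.73-fold, and the receptor Fzd3, which guides axon tracts, at 4.17-fold. Wnt inhibitors and targets had 9 of 18 members higher in limb and 1 in brain, with a median of -0.99. Among secreted antagonists, Dkk2 was 45.0-fold and Dkk1 17.7-fold higher in limb, while Sfrp1 was 2.51-fold higher in brain.

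Ligands of the Tgf-beta, Bmp and Gdf family had 15 of 26 members higher in limb and 3 in brain. Mstn, the muscle growth inhibitor myostatin, was at least 22.9-fold and Gdf5, of joint interzones, 9.74-fold higher in limb. Bmp and Tgf-beta receptors and inhibitors had 15 of 36 members higher in limb and 4 in brain, with a median of -0.66. Inhbb, with a second probe 1.04-fold higher, and Bmp6 were 3.49-fold and 2.92-fold higher in brain, and so was Id4, an inhibitor of basic helix-loop-helix factors that answers Bmp, at -0.26 and 3.50, 13.54-fold. Fstl5, a follistatin-like protein, was at least 57.6-fold higher in brain in WT and 7.76-fold in CKO. Of 14 hedgehog pathway genes 9 were higher in limb, among them the targets Hhip, at least 9.88-fold, and Gli1, 8.01-fold. The ligand Shh was at -3.10 in brain and dark in limb, at least 3.61-fold higher in brain, and the receptor Ptch1, named after its values were seen, was at -0.60 and -0.93.

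Notch genes were mixed, 5 of 23 higher in brain and 6 in limb, beside 15.8% and 18.9% of all compared genes. Another 12 differed by less than 2-fold, and the median was 0.43. Dll3, a divergent ligand, was 33.3-fold and Dner, a neuronal ligand, 22.2-fold higher in brain, and the receptor Notch2 and the effector Hes1 were 2.49-fold and 2.54-fold higher in limb. Retinoic acid genes had 12 of 18 members higher in limb, Rarg, a nuclear receptor of cartilage and skin, by 18-fold, although another of its probes was at a difference of 0.05. Insulin-like growth factor genes had 9 of 16 higher in limb and 1 in brain: Igf2 was at 7.87 and 4.31, 11.8-fold higher in limb, Igf1 13.9-fold higher, and Igfbpl1, a binding-protein relative, was at 3.70 in brain and at least 402-fold higher there. Fibroblast growth factor genes were divided, 10 of 22 higher in limb and 7 in brain. Fgf10, the mesenchymal ligand of limb outgrowth, was 8.83-fold, Fgf7 at least 14.7-fold and the receptor Fgfr4, of muscle precursors, 23.9-fold higher in limb, and Fgf15 was at least 30.2-fold higher in brain.

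Neurotrophin ligands and receptors differed in direction. Ntf3, a survival factor of sensory neurons, was 14.3-fold and Ntf5 29.9-fold higher in limb, and Bdnf was equal at -2.37 and -2.41. The receptors Ntrk2 and Ntrk3 were 2.74-fold and 2.95-fold higher in WT brain, and limma's adjusted p was 0.020 and 0.0032.

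Guidance molecules were divided by member. Of 31 semaphorins, plexins and neuropilins 12 were higher in brain and 7 in limb, with Sema7a 6.19-fold higher in brain and Sema3d at least 14.7-fold higher in limb. Robo3, which lets axons cross the midline, was at least 106-fold and Dcc, the netrin receptor, 24.9-fold higher in brain, and the ligand Slit3 was 5.91-fold higher in limb. Unc5d, another netrin receptor, was at -1.18 in WT limb and -3.75 in WT brain, and at -4.52 and -3.68 in the CKO pair. Its second probe gave a WT difference of -0.39. Epha5 and Ephb1, receptors of axon maps, were 14.7-fold and 11.7-fold higher in brain, and Epha1, of epithelium, was 55.0-fold higher in limb. Among cadherins, Cdh2 of neural tissue was 4.44-fold and Cdh22 41.8-fold higher in brain (7.07-fold in CKO), and Cdh1 of epithelium and Cdh15 of muscle were 20.7-fold and 21.1-fold higher in limb. Cxcl14, a chemokine of mesenchyme and skin, was at 5.89 and -0.48, 82.9-fold higher in limb, Pdgfra, the growth factor receptor of mesenchyme, 16.9-fold higher in limb, and Cxcr4, a chemokine receptor of migrating cells, 3.15-fold higher in brain.

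**Figure D3:**
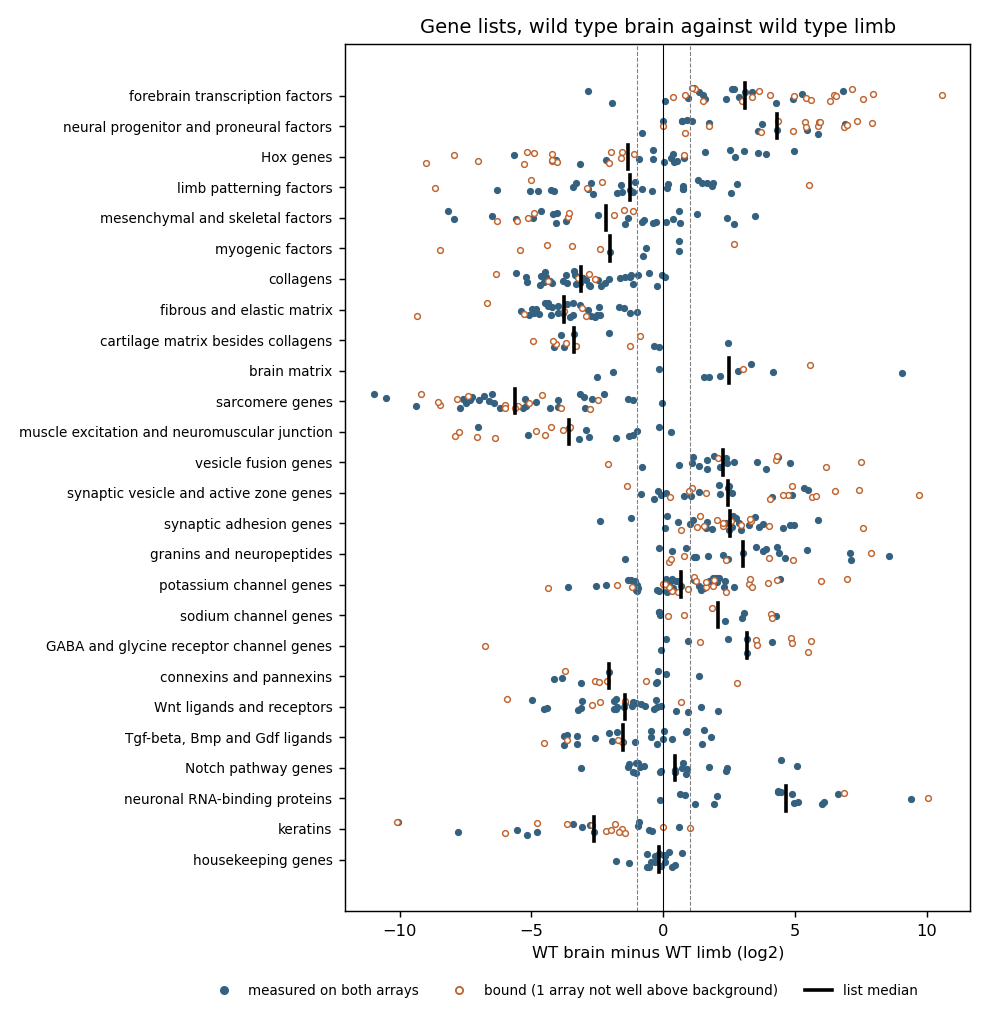
WT brain minus WT limb difference (log2, x axis) of every compared member of 26 gene lists (y axis); filled circles are genes measured on both arrays, open circles are bounds, the black bars are list medians and the dashed lines mark 2-fold. Sarcomere and fibrous matrix genes lie to the left, forebrain and neuronal RNA-binding genes to the right, and housekeeping genes around 0.

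Genes of the neuronal cytoskeleton and neuronal RNA-binding proteins were higher in brain almost throughout. All 29 microtubule and growth cone genes were at least 2-fold higher in brain, with a median of 4.16, and limma called 27 of the 27 it could fit higher in brain, against 33.8% of all 15628 fitted genes called higher in brain and 35.4% called higher in limb. Mapt, the microtubule protein tau, was at -1.60 and 6.56, 287-fold higher, with 8.10 ± 0.05 and an adjusted p of 0.0017. Tubb3, neuronal tubulin, was at -1.76 and 6.24, 256-fold higher in WT and 40.7-fold in CKO. Tubb6, a tubulin of muscle and other non-neural cells, was 10.2-fold higher in limb, and its second probe gave a difference of 0.25 towards brain. Of 18 neuronal RNA-binding proteins 15 were higher in brain, with a median of 4.67, against 2.93 in the CKO pair. Elavl3, which stabilises neuronal messages, was dark in limb and at 5.10 in brain, at least 1061-fold higher, and 40.3-fold in the CKO pair. Celf3, a splicing regulator, was at -4.35 and 5.04, 669-fold higher, against 6.58-fold in CKO with CKO limb at 2.36, and limma's adjusted p was 0.071. Esrp2, the epithelial splicing factor, was at least 58.2-fold higher in limb. The polypyrimidine tract proteins, named after their values were seen, crossed over: Ptbp1, which represses neuronal exons, was at 4.08 and 2.60, 2.80-fold higher in limb, and Ptbp2, its neuronal successor, was at -0.01 and 2.03, 4.10-fold higher in brain, both with an adjusted p of 0.0017 by limma. The 2 other measured probes of Ptbp2 gave differences of -0.43 and 0.55.

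Genes of other cell types lay beside these differences. Of 18 epidermis genes 15 were higher in limb, with a median of -4.61, Krt15 by at least 1083-fold, Krt14 by 220.3-fold and Trp63, the master factor of stratified epithelium, by at least 156-fold. Erythroid genes were higher in WT limb in 14 of 17 cases, with a median of -1.71, and in 4 of 15 in the CKO pair. Alas2, the first enzyme of haem synthesis in red cells, was 3.79-fold higher in WT limb. Macrophage and microglia genes had 17 of 20 higher in limb, although the surface receptor P2ry12, a microglial marker, was 2.42-fold higher in brain, and Tmem119, known from microglia and bone, was 37.6-fold higher in limb. Endothelial genes had 12 of 20 higher in limb, whereas Cldn5 and Mfsd2a, of the blood-brain barrier, were 2.06-fold and 3.95-fold higher in brain and the glucose carrier Slc2a1 was at 2.64 and 2.75. Fabp7, of radial glia, was at -0.36 and 6.86, 149-fold higher in brain, Slc1a2, a glial glutamate transporter, 18.2-fold, and Ttr, the choroid plexus thyroxine carrier, at least 111-fold higher. Choroid plexus genes as a list went both ways, 5 of 11 higher in brain and 4 in limb, with a median of 0.00 that was itself a bound. Of the 7 measured in both tissues, 2 were higher in brain and 4 in limb, with a median of -2.09. Peripheral sensory neuron genes had 8 of 16 members higher in brain and 0 in limb, with a median of 1.03. The furthest was Isl1, a LIM factor of motor and sensory neurons, at least 50.4-fold higher in brain. Schwann cell and neural crest genes had 5 of 11 members higher in limb and 1 in brain, with a median of -0.88. Erbb3, of Schwann cells and their precursors, was the furthest towards limb, at 14.9-fold. The part of blood, skin, vessels and nerve in the other differences was not tested.

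Of 22 cell cycle genes 4 were at least 2-fold higher in limb, beside 18.9% of all compared genes, and 0 in brain, with a median of -0.77. Limma called 20 of the 22 higher in limb, beside 35.4% of all fitted genes. Ccnd3, a D-type cyclin, was the widest at 4.17 and 1.45, 6.56-fold higher in limb.

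The CKO arrays gave a second pair of the same tissues, with 15.1% of 19704 genes at least 2-fold higher in brain and 16.9% in limb. Of 2861 genes higher in WT brain and above background in the CKO pair, 2475 were also at least 2-fold higher in CKO brain and 20 were at least 2-fold higher in CKO limb. Of 3368 genes higher in WT limb, 2761 were also higher in CKO limb and 9 were higher in CKO brain. Across the 15628 genes measured on all 4 arrays the pairs' differences had a Pearson r of 0.949 across genes, which are not independent replicates, and a median gap of 0.12. The gap reached 2-fold in 522 genes. In 235 of these WT brain was higher by any amount, and the signed brain minus limb difference was lower in CKO. Genes that turned towards limb in CKO, such as Entpd2, count among them. No share of all genes was set beside this count, so it tests nothing about genotype. Of the 80 list medians, those of cartilage matrix, of granins and neuropeptides and of neuronal RNA-binding proteins differed most between the pairs, each nearer 0 in CKO.

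**Figure D4:**
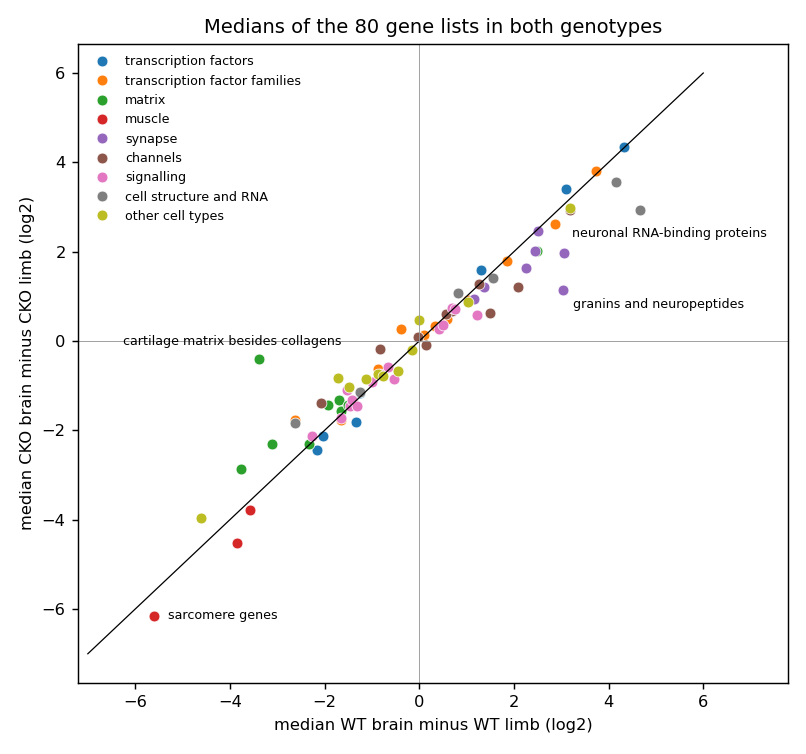
Median brain minus limb difference (log2) of each of the 80 gene lists in the WT pair (x axis) and in the CKO pair (y axis), coloured by role; the diagonal marks equal medians. Granins and neuropeptides (3.03 and 1.13), neuronal RNA-binding proteins (4.67 and 2.93) and cartilage matrix (-3.39 and -0.41) lie off the diagonal towards 0 in CKO.

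Some genes gave opposite tissue differences through different probes. Of 5698 genes with 2 or more probes measured on both WT arrays, 26 had probes at least 2-fold apart in opposite directions, and 13 of these did so in the CKO pair too. Map4, a microtubule-associated protein of many tissues, had the widest split. Its probe at chr9:109939973-109940032 (mm9) was at 0.53 in limb and -4.12 in brain, 25.1-fold higher in limb, and its probe at chr9:109907547-109907606 was at -4.61 and -0.02, 24-fold higher in brain. Ncam1, a neural and muscle adhesion molecule, had a probe 3.91-fold higher in limb at chr9:49325605-49325664 and a probe 5.56-fold higher in brain at chr9:49310320-49310379. Aak1, a kinase of endocytosis, had a probe 2.44-fold higher in limb at chr6:86951847-86951906 and a probe 38.2-fold higher in brain at chr6:86941572-86941631. These genes were found by their values, and which transcripts each probe reads was not tested.

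**Figure D5:**
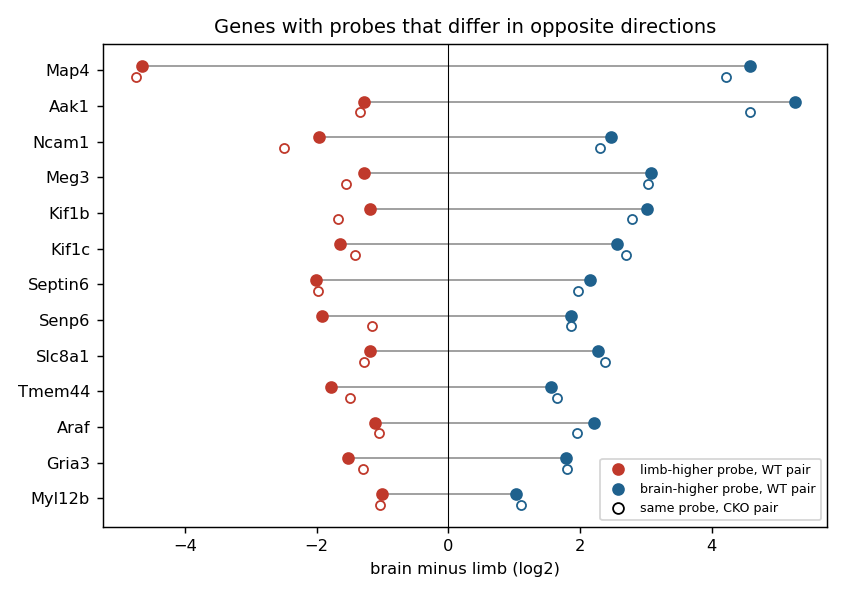
Brain minus limb difference (log2, x axis) of the probe highest towards limb (red) and the probe highest towards brain (blue) of the 13 genes (y axis) whose probes differed by at least 2-fold in opposite directions in both genotypes; filled circles are the WT pair and open circles the same probes in the CKO pair. Map4 has the widest span, from -4.65 to 4.59 in WT.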

How the data were processed

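Total RNA of E13.5 limb and brain was labelled with Cy3 and hybridised to 1-colour Agilent arrays, 1 per group, per the labels' protocols. Per the submitters' processing notes, the scans were read by Agilent Feature Extraction 9.5.3.1. Its processed signal, a linear intensity that the authors deposited, was already background-corrected per the file headers. The deposited series table held the same linear signals, with a largest gap of 0.0071 after log2 of both. Here the log2 of each non-control spot's processed signal was centred on its array's 75th percentile, spots of a probe were averaged, and the probe whose mean over all 4 arrays was highest stood for its gene. Probe names were updated through RefSeq's gene table where an accession or symbol matched (15459 of the genes compared have a current symbol). Probe positions are those of the files, build mm9.

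A gene entered the comparison when well above background on at least 1 WT array. Where it was not above background in a tissue, the bound used the lowest signal well above background on that array or the probe's own, whichever was higher. No test of the WT pair exists. The tissue test was limma 3.58.1 in R 4.3.3 (tissue and genotype terms, trended eBayes, Benjamini-Hochberg threshold 0.05) on 15628 genes measured on all 4 arrays, with 1 residual degree of freedom, and the script was tested on simulated data. Other steps used Python 3.11.15, numpy 2.4.6, pandas 2.3.3, scipy 1.17.1 and matplotlib 3.10.9. The number of arrays limits the precision, and whether embryos were pooled is unknown.

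The members and the 80 gene lists were chosen with earlier results of these data known. The genes named were drawn, not all printed, from Rest, the 15 largest differences and 8 largest bounds in each direction, and in each list up to 6 members in its majority direction, up to 3 in the other and up to 2 closest to equal, with every member of lists of 12 or fewer open to naming. Actc1, Myh4, Ttn, Ptch1, Ptbp1, Ptbp2, Ttc9b, Hrh3, Osbp2, Sptbn4, Lca5, Ogdhl, Oc90, Otor, Epyc, Nnat and the genes with opposed probes were named after their values were seen. Alternatives were background correction (normexp, offset 50), quantile normalization, median centring, the filter on dim probes, the mean over a gene's probes, the series table, the CKO pair, a 4-fold threshold, and for the test the genotype term, a floor for dim genes and each array left out.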

Additional observations from a re-analysis of the deposited data

Results flagged for a closer look

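Nkx3-2, Six3, Oc90, Otor and Epyc had tissue differences of opposite sign in the WT and CKO pairs. Nkx3-2 was 3.48 (log2) higher in brain in WT and at least 2.37 higher in limb in CKO, a difference of -2.37, where CKO brain was not above background. Six3 was 2.84 higher in limb in WT, a difference of -2.84, and at least 2.58 higher in brain in CKO, where CKO limb was not above background. Oc90 and Otor were 1.37 and 2.07 higher in limb in WT, differences of -1.37 and -2.07, and 6.66 and 1.19 higher in brain in CKO. Epyc was at least 3.70 higher in limb in WT, a difference of -3.70 against a WT brain not above background, and 2.32 higher in brain in CKO. With 1 array per group the difference between genotypes was not tested for any of these genes.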

How the results depend on the processing

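The counts at 2-fold, 2916 higher in WT brain and 3475 higher in WT limb, were 2290 and 2488 with normexp background correction, 2956 and 3315 with quantile normalization, 3194 and 3193 with median centring, 2168 and 2527 among genes above background in both tissues, and 2982 and 3325 in the CKO pair. A 4-fold threshold gave 1364 and 1498. With normexp, 70 list medians were counted as changed and 10 as the same. The median of sarcomere genes went from -5.61 to -4.40, of cartilage matrix from -3.39 to -2.07 and of Hox genes from -1.34 to -0.61. That of tubulins went the other way, from 1.56 to 1.61. The size of the differences in these lists, and so of their folds, thus depended on the background correction. Limma's counts, 5278 and 5537, were 5847 and 6215 of 18122 genes with dim values set to a floor, and leaving out each array in turn gave 3817 to 5101 higher in brain and 4119 to 5427 higher in limb, the lone array of a tissue being assumed to vary like the other tissue. Median centring moved the median of all genes by 0.07, the largest shift of the scalings. The Hox median turned from -1.34 to 0.39 (0.385) and that of transmitter synthesis genes from 1.37 to -0.29 when only genes above background in both tissues were kept, which leaves fewer genes. In the CKO pair the sign turned for Acan (0.17), Crtac1 (-0.49), Epyc (2.32), Hapln1 (0.38), Nkx3-2 (-2.37), Oc90 (6.66), Otor (1.19), Scg2 (-0.95), Six3 (2.58) and Unc5d (0.84), and the mean over probes turned Aak1 to 1.28; the cause was not tested. No paired analysis was possible because the labels carry no replicate numbers and each group has 1 array. Signal over background limits the 1576 genes dark in limb and the 1197 dark in brain to bounds.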

Other observations

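A list of imprinted genes, which are transcribed from 1 parental copy, was added after values were seen, and its members lay on both sides. Of 37 compared, 15 were at least 2-fold higher in WT limb and 9 in WT brain, with a median of -0.45. Slc38a4, an amino acid transporter, was at 1.91 in limb and -3.35 in brain, 38.5-fold higher in limb. H19, a non-coding RNA next to Igf2, was at 5.98 and 1.70, 19.5-fold higher, and Dlk1, a Notch-family ligand of growing tissue, at 6.99 and 3.87, 8.66-fold higher in limb. Nap1l5, a nucleosome assembly relative, was at -2.26 and 2.37, 24.9-fold higher in brain. Snrpn, of the splicing machinery, was 17.8-fold and Nnat, neuronatin, 11.9-fold higher in brain, and the CKO pair gave 16.2-fold and 8.38-fold.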
